A study of Naumovozyma castellii with 14 samples.

Results

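Of 5599 protein-coding genes in strand-specific total RNA-seq tables of the budding yeast Naumovozyma castellii, 256 have at least 50% of their length covered by a single Xrn1-sensitive unstable transcript (XUT) on the opposite strand. They are called XUT-covered genes here, and the choice rests on annotated positions alone and uses no measured level. Each gene was paired with the XUT that covers most of it, which gave 250 distinct XUTs, since 6 XUTs cover 2 of the genes each. The comparison set is made of protein-coding genes that no annotated non-coding RNA (CUT, XUT or SUT) faces on the other strand, matched 1 to 1 by density in WT.

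All 14 libraries come from MATalpha cells with the ura3-1 and ho alleles. The groups are upf1 CHX (upf1::kanMX6, treated, 2 libraries), WT CHX (treated, 2 libraries), dcr1 upf1 (dcr1 and upf1::kanMX6, 2 libraries), upf1 (upf1::kanMX6, 4 libraries) and WT (4 libraries). Each genotype is represented by a single strain (YAM2890 for upf1, YAM2943 for dcr1 upf1 and YAM2478 for WT), so a difference between genotypes is a difference between these strains. Treated cells had received cycloheximide (CHX) at 100 µg/mL for 15 min, and all cultures were grown in YPD at 25 °C to an OD600 of 0.5.

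XUTs are RNA polymerase II transcripts that the cytoplasmic exonuclease Xrn1 degrades from the 5′ end, and many of them run antisense to genes. Upf1 is the RNA helicase at the core of nonsense-mediated decay (NMD), which destroys RNAs on which translation ends too early, and cycloheximide stalls translating ribosomes and so also blocks this decay. Unlike Saccharomyces cerevisiae, N. castellii has kept RNA interference, in which the ribonuclease Dicer (Dcr1) cuts double-stranded RNA such as a gene and its antisense transcript could form.

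The gene deleted in the upf1 strains, NAM7, had 0 reads in all 8 upf1, upf1 CHX and dcr1 upf1 libraries, 2584 and 2335 reads in the WT CHX libraries and 1601, 1279, 1074 and 1474 reads in the WT libraries. No feature could be paired with DCR1 by name, so that deletion was not checked here. Libraries held 7895089 to 22437334 reads. Values are normalised read densities, that is reads per base of feature after scaling of the libraries, so levels of genes and XUTs can be set side by side per length. Fold changes are given as log2 of density + 0.02, which understates the change of features near that pseudocount. The deposited scaling gives all mRNAs a median log2 fold change of 0.20 in upf1 against WT and of 1.35 in WT CHX against WT, while scaling each library by its median ratio over mRNAs (mRNA-ratio scaling) puts these medians at −0.10 and 0.07. The scaling of libraries was therefore tried both ways, and a raw ratio of XUT to gene within a library is the same under both. The labels do not say whether libraries came from separate cultures, so p-values measure the spread between libraries, which may be technical.

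The XUTs were longer than the genes they face. Genes had a median length of 844.5 bases (108 to 3936), and XUTs of 1073 bases (227 to 5982). The XUT covered the start of the gene but not its end in 111 cases, the whole gene in 95, only the inside in 27 and the end but not the start in 23. The start of the XUT lay inside the gene itself in 136 cases, a median of 101 bases from the gene's end, with a next gene on the same strand (a tandem neighbour) in 77 of them and a convergent neighbour in 59. In 78 cases it lay between the gene and a tandem neighbour, a median of 308.5 bases from that neighbour's start and under 300 bases in 37 of them. In 27 cases it lay between the gene and a convergent neighbour. A CUT that also faces the gene overlapped the XUT on its strand in 111 cases, so those XUT values may share reads with a CUT. CUTs that overlap a XUT only beyond the gene were not counted. Tandem neighbours were more frequent among the 233 genes that entered the tests (153) than among their matched genes (101). The genes were also shorter, as the rule favours, with a median of 831 bases against 1323 for matched genes.

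**Figure D1:**
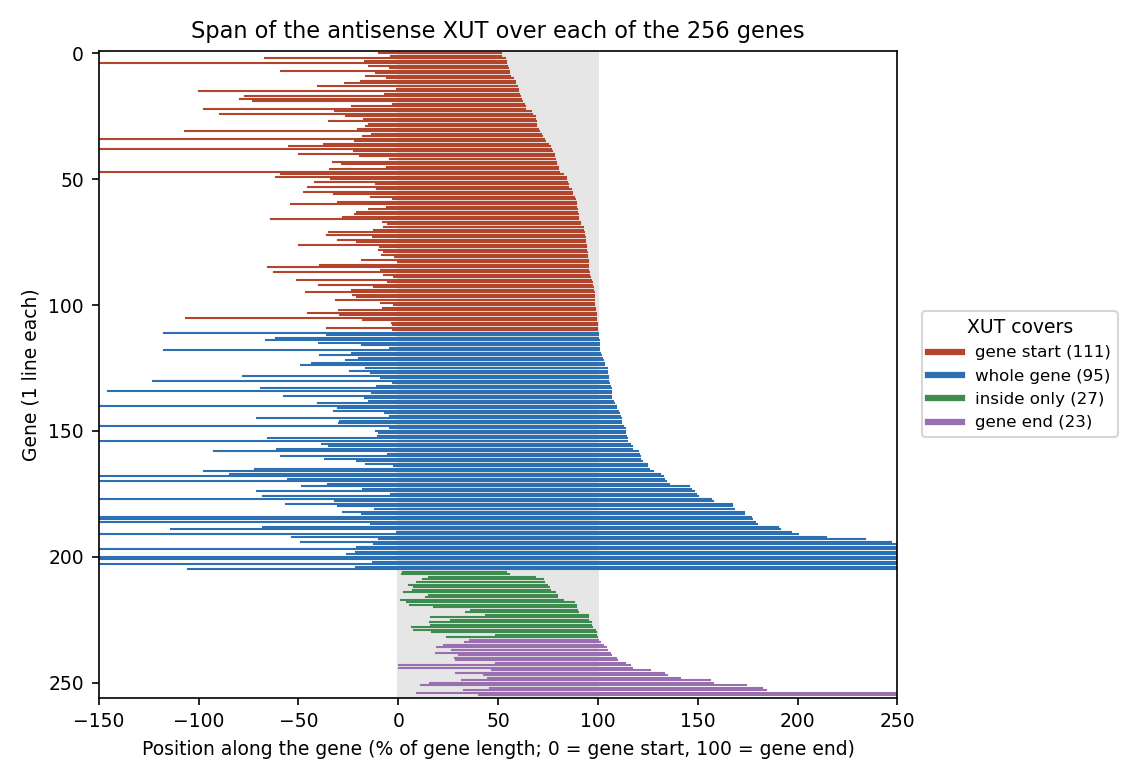
Span of the antisense XUT along each of the 256 genes, 1 line a gene, with the gene shaded and drawn from its start at 0 to its end at 100 on a horizontal axis in % of gene length. Longer spans are cut at the edge of the plot. Colours give which stretch the XUT covers: the gene start in 111 genes, the whole gene in 95, only the inside in 27 and the gene end in 23.

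Just inside the limit of 50% lay RTC1 (50.2% covered by XUT0507), NCAS_0I00100 (50.8%, XUT0919) and NCAS_0G03830 (50.9%, XUT0827). Their mean densities were 0.143, 4.02 and 0.00177 in upf1 and 0.133, 1.64 and 0 in WT. Just outside it were STP4 (49.9%), NCAS_0A10250 (49.6%) and NCAS_0I02600 (49.5%), with mean densities of 0.0409, 0.235 and 1.41 in upf1 and 0.0172, 0.183 and 0.232 in WT.

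XUT-covered genes spanned several orders of magnitude in level, with a median below that of all mRNAs. The 233 genes with a mean density of at least 0.02 over all libraries, which were tested, had a median density of 0.152 in WT (0.00203 to 77.3), against 0.151 for the matched genes and 0.269 (0.000832 to 314.29) for all mRNAs tested. Of the 233 genes 28 were under 0.02 in WT and passed this limit through other groups, as did 28 of the matched genes. Most XUTs were far less abundant than the gene. Over the 202 pairs in which both were tested, the median XUT density was 21.5% of the gene density in upf1 and 10.8% in WT (ratio of group means, no pseudocount). The XUT was the more abundant of the pair in 42 pairs in upf1 and 33 in WT, and it stayed under 10% of the gene in 56 pairs in upf1 and 97 in WT.

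Among the 8 most abundant genes the XUT was a small share of the gene, and the share was smallest for TIP1 and PMP1. Choosing genes by their own high density by itself makes a small share likely. TIP1, for a cell wall mannoprotein (chromosome 9, 289458 to 290102, plus strand; coordinates are the table's own, in a build that the sources used here do not name), had densities of 88.0, 81.4, 67.5 and 84.6 in the upf1 libraries and 78.2, 68.2, 80.4 and 82.5 in the WT libraries. XUT0940, which covers it whole, averaged 0.00653 in upf1 and 0.00598 in WT, which is 0.00813% of the gene in upf1 and 0.00773% in WT. PMP1, for a regulator of the plasma membrane proton pump, averaged 60.8 in upf1 and 43.5 in WT, with XUT0154 at 0.00870% of it in upf1 and 0.00353% in WT. RPL21B, for a ribosomal protein of which yeasts often carry a near-identical copy so that its level is uncertain, ATX1 (copper chaperone), HSP12 (membrane stress protein), TPM2 (tropomyosin), TIM10 (mitochondrial import chaperone) and TMH11 made up the rest of the 8, at 3.68 to 18.7 in WT. Among these 6 the share was highest for TIM10, where XUT0517 was 4.21% of the gene in upf1 and 2.25% in WT, and under 1% for each of the others in both groups.

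At the other end, 23 of the 256 genes stayed under a mean density of 0.02 and were not tested, and nearly all were outweighed by their XUT. They were set apart by their own low level, which by itself makes a higher XUT likely. Their density had a median of 0.00483 in upf1 (0.000495 to 0.0160) and of 0.00272 in WT (0 to 0.00884), whereas the XUTs had a median of 0.135 in upf1 (0.0111 to 3.44) and of 0.0260 in WT (0.00131 to 3.61). The XUT lay above the gene in 22 of 23 pairs in upf1 and in 21 in WT, and in every one of the 14 libraries for 20 pairs. Of the 21 of these XUTs that were tested, 17 were higher in upf1 and 0 lower, where 77.3% of all XUTs tested were higher. Among the highest XUTs of this kind, XUT0859 over NCAS_0H00470 averaged 3.44 in upf1 and 3.61 in WT, and XUT0958 over NCAS_0I02640 averaged 2.91 in upf1 and 2.80 in WT, and neither was called. Also among these genes, named after their values were seen, are FBP1 (fructose-1,6-bisphosphatase, an enzyme of gluconeogenesis that S. cerevisiae shuts off on glucose), DAL4 and DAL2 (allantoin uptake and breakdown), MER1 (a splicing factor of meiotic genes) and IME4.

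IME4 encodes an mRNA adenosine methyltransferase that S. cerevisiae diploids need to enter meiosis, and in that yeast a long antisense transcript keeps it off in haploid cells. In N. castellii IME4 (chromosome 2, 1035557 to 1037230, plus strand) lies whole within XUT0352. The gene had 0, 3, 1 and 0 reads in the upf1 libraries and 1, 0, 0 and 0 in the WT libraries, and 5 and 10 in upf1 CHX, 8 and 7 in WT CHX and 5 and 2 in dcr1 upf1. XUT0352 had densities of 2.01, 1.92, 2.75 and 2.45 in the upf1 libraries, against 0.300, 0.248, 0.257 and 0.306 in the WT libraries (log2 fold change 2.94, SE 0.12, limma adjusted p = 4.49e-12). All upf1 libraries lay above all WT libraries. It averaged 3.48 in upf1 CHX, 1.84 in WT CHX and 1.89 in dcr1 upf1. IME4 is the only gene of the 256 on a list of 10 S. cerevisiae genes with documented antisense regulation, of which 8 were found by name.

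The first comparison asks how the genes and their antisense partners change when Upf1 is lost. Of the 233 genes tested 143 rose (61.4%) and 2 fell in upf1 against WT, with a median log2 fold change of 0.50. Of all mRNAs tested 36.2% rose and 0.661% fell, with a median of 0.20. Of the matched genes 103 rose (44.2%) and 2 fell, with a median of 0.27, so the share among XUT-covered genes was higher than in genes of the same WT level. That difference between the sets was not itself tested. Under mRNA-ratio scaling 104 of the genes were higher and 34 lower, against 79 and 54 of the matched genes, with medians of 0.21 and 0.01. With the replicate number as a block 150 were higher and 3 lower. With 1 WT or upf1 library left out at a time 1 to 4 of the genes were lower. With replicates 1 and 2 alone, 131 of the genes were higher and 9 lower. The difference between the medians of the XUT-covered and matched genes was 0.23, and 0.11 with a pseudocount of 0.1. It varied with WT density. For the 77 XUT-covered genes lowest in WT the median was 0.81, against 0.605 for matched genes. For the 77 in the middle it was 0.53 against 0.28. For the 79 highest the medians were close, at 0.165 and 0.155, while 34.2% rose against 22.8%. The shares that rose were 80.5% against 59.7% in the lowest and 70.1% against 50.65% in the middle genes. These differences by level were not tested. The libraries of the groups did not overlap for 133 of the 233 genes, against 33.6% of all mRNAs. In bulk cultures a change in the share of cells that express a gene and a change per cell cannot be told apart.

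Their XUTs moved further. Of 217 XUTs tested 189 rose and 0 fell, and the median log2 fold change was 1.04. Over the 202 pairs the median XUT density was 0.01365 to 0.01936 in the WT libraries, under the limit of 0.02. Many XUTs thus passed this limit on the mean of all libraries through other groups, which by itself favours rises over falls. The same limit applied to all XUTs tested. Under mRNA-ratio scaling 83.4% of the 217 XUTs rose and 2.30% fell, against 65.0% and 1.09% of the other XUTs tested. Of all XUTs tested 77.3% rose, and of the 551 XUTs that do not face 1 of these genes 405 rose and 1 fell, with a median of 0.78. At least a 2-fold rise was seen for 114 XUTs and for 50 genes.

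**Figure D2:**
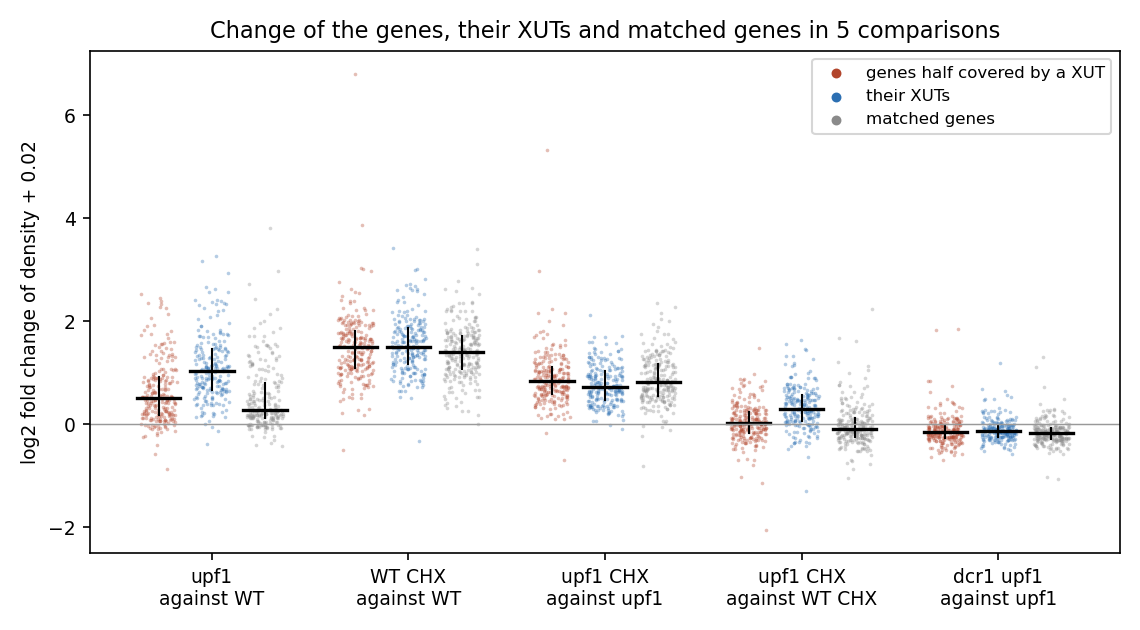
Log2 fold changes of density + 0.02 in 5 comparisons for the genes at least 50% covered by a XUT (red, 233), their XUTs (blue, 217) and matched genes (grey, 233). Thick bars are medians and thin bars quartiles. In upf1 against WT the medians were 0.50 for the genes, 1.04 for the XUTs and 0.27 for the matched genes, while in WT CHX against WT they were 1.49, 1.5 and 1.40.

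The pair of genes that rose most share a XUT. NCAS_0F01690 (chromosome 6, 343128 to 343625, minus strand) had densities of 1.11, 1.19, 1.6 and 1.46 in the upf1 libraries, against 0.248, 0.170, 0.175 and 0.275 in the WT libraries (log2 fold change 2.53, SE 0.15, limma adjusted p = 2.89e-10). Its neighbour NCAS_0F01680 had 0.554, 0.532, 0.680 and 0.635 in the upf1 libraries, against 0.0970, 0.0827, 0.0926 and 0.0985 in the WT libraries (log2 fold change 2.46, SE 0.11, limma adjusted p = 8.8e-12). The groups did not overlap for either gene. XUT0713, which covers 59.4% of the first and 62.2% of the second, averaged 0.0266 in upf1 and 0.0109 in WT, with a log2 fold change of only 0.59 (SE 0.16, limma adjusted p = 0.00683). The XUT thus rose by much less than either gene.

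In NCAS_0G02340 both strands rose alike. The gene had densities of 0.820, 0.751, 1.11 and 1.03 in the upf1 libraries, against 0.167, 0.121, 0.168 and 0.188 in the WT libraries (log2 fold change 2.39, SE 0.14, limma adjusted p = 2.97e-10). XUT0805, over 69.9% of it, had 1.01, 0.991, 1.12 and 0.934 in the upf1 libraries, against 0.181, 0.164, 0.233 and 0.216 in the WT libraries (log2 fold change 2.25, SE 0.12, limma adjusted p = 6.53e-11). The XUT to gene ratio of this pair was not called changed (log2 fold change −0.14). Among the other genes with the largest rises were NCAS_0B00320 (2.35), NCAS_0H00110 (2.34), NCAS_0B04430 (2.28), NCAS_0F04090 (2.26), NCAS_0G01410 (2.14), NCAS_0A03060 (2.06), NCAS_0B03170 (1.92), NCAS_0I03080 (1.90) and NCAS_0D03480 (1.84), all on the log2 scale. None of these genes has a symbol in the tables used here, so no role is given for them. NCAS_0H00110 and NCAS_0F04090 lie within 20 kb of a chromosome end, where genes often have near-identical copies, and their levels are uncertain for that reason.

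Pairs were then sorted by which strand changed. Of the 202 pairs both the gene and the XUT rose in 117, the gene alone in 11, the XUT alone in 60 and neither in 13. In the remaining pair, that of MUP1, the gene fell and the XUT rose. The XUT's log2 fold change exceeded the gene's in 150 of 202 pairs. Across pairs the changes of gene and XUT had a Pearson r of 0.20 and a Spearman rho of 0.21. These values are a description over 202 pairs measured in the same libraries, and pairs are not independent replicates. The gene rose in 65.7% of the 178 pairs whose XUT rose and in 45.8% of the 24 others. With most XUTs higher, joint rises are frequent whether or not the strands change together, and an excess was not tested. The counts of pairs were not set against other opposite-strand pairs.

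**Figure D3:**
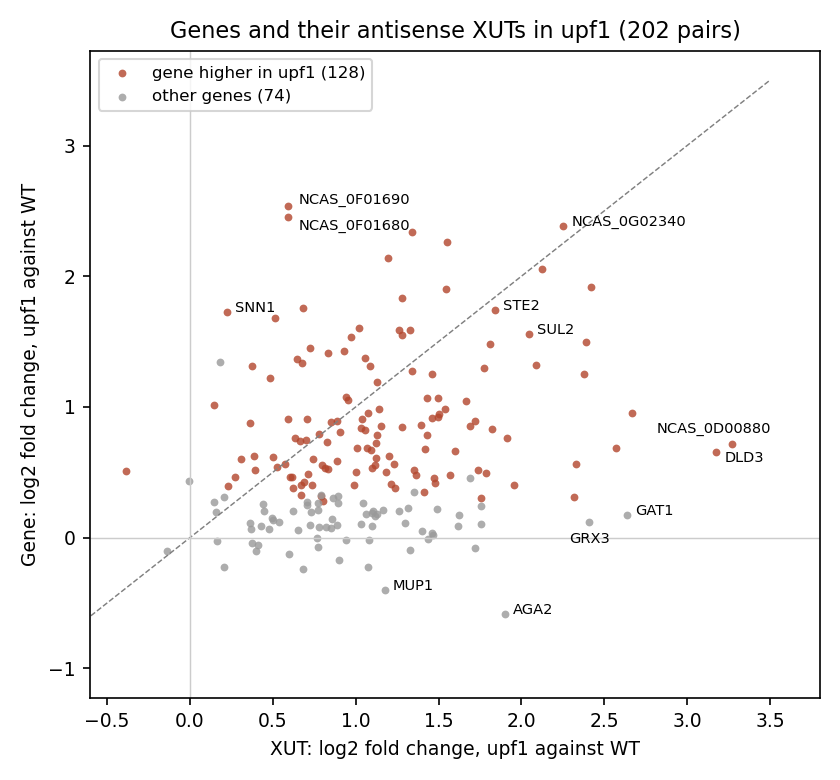
Log2 fold change (upf1 against WT) of each gene against that of its XUT, 1 point for each of 202 pairs. Red points are the 128 genes called higher in upf1, and the dashed line marks equal change. Of the points 150 lie on the XUT side of the line, and NCAS_0F01690 and NCAS_0F01680 lie far on the gene side.

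The ratio of XUT to gene within a library was tested over all 1104 pairs of an mRNA and a facing non-coding RNA. In upf1 against WT it was called higher in 33.4% of all these pairs and lower in 17.6%. Among the 202 pairs of interest it was higher in 105 and lower in 20. With a pseudocount of 0.1, which damps the low XUTs, the shares were 29.7% and 19.8% of the 202. The largest rise was that of NCAS_0D00880 and XUT0541, which covers it whole. XUT0541 had densities of 0.473, 0.492, 0.667 and 0.612 in the upf1 libraries, against 0.0456, 0.0418, 0.0321 and 0.0404 in the WT libraries. The gene had 0.0308, 0.0208, 0.0190 and 0.0189 in the upf1 libraries, against 0.0112, 0.00750, 0.00354 and 0.00159 in the WT libraries (log2 fold change 2.55, SE 0.18, limma adjusted p = 6.04e-08 for the ratio). Both strands were higher in every upf1 library, the XUT by more.

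DLD3, for a D-2-hydroxyglutarate transhydrogenase, is covered by XUT0849 over 51.3% of its length, at the start. The XUT was at 85.3, 89.3, 78.0 and 81.2% of the gene in the upf1 libraries, against 5.88, 14.1, 16 and 9.37% in the WT libraries (log2 fold change 2.52, SE 0.21, limma adjusted p = 1.5e-07 for the ratio). The gene itself averaged 0.688 in upf1 and 0.435 in WT (log2 fold change 0.66). For GAT1, a GATA-type activator of nitrogen genes, XUT0492 outweighed the gene in both groups, with mean densities of 0.599 in upf1 and 0.0792 in WT, while GAT1 averaged 0.0160 in upf1 and 0.0127 in WT and was not called (log2 fold change 0.18). For GRX3, a monothiol glutaredoxin, XUT0324 had 0.166, 0.136, 0.174 and 0.200 in the upf1 libraries, against 0.0250, 0.00939, 0.00974 and 0.0197 in the WT libraries (log2 fold change 2.41, SE 0.17, limma adjusted p = 1.69e-09). GRX3 had 0.815, 0.840, 0.889 and 0.847 in the upf1 libraries and 0.779, 0.705, 0.832 and 0.811 in the WT libraries and was not called (log2 fold change 0.12). These pairs were chosen for the largest rises of the ratio, so a XUT that rose by more than its gene follows from that choice. GAT1 and GRX3 were not called, while the change of DLD3 was above the median of 0.50 of all genes tested here.

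The ratio fell most for NCAS_0F01690, NCAS_0F01680, SNN1, NCAS_0A09640, BLS1 and NCAS_0H00110, whose genes rose by more than their XUTs. On the log2 scale the XUTs themselves rose by 0.59 for XUT0713, by 0.51 for XUT0176 over NCAS_0A09640, by 0.68 for XUT1002 over BLS1 and by 1.34 for XUT0842 over NCAS_0H00110. SNN1 and BLS1 encode subunits of the BLOC-1 complex of endosomes. SNN1 had 0.713, 0.736, 0.979 and 0.942 in the upf1 libraries, against 0.291, 0.192, 0.223 and 0.258 in the WT libraries (log2 fold change 1.73, SE 0.14, limma adjusted p = 1.05e-08). XUT0808, which covers it whole, had 0.0240, 0.0245, 0.0437 and 0.0228 in the upf1 libraries and 0.0320, 0.0230, 0.0235 and 0.00958 in the WT libraries and was not called (log2 fold change 0.22). BLS1 averaged 0.539 in upf1 and 0.147 in WT (log2 fold change 1.75, SE 0.13, limma adjusted p = 5.12e-09), and XUT1002 averaged 0.0321 in upf1 and 0.0129 in WT.

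Only 2 of the 233 genes fell in upf1. FUS1, a membrane protein that acts in cell fusion during mating, had densities of 0.00916, 0.0112, 0.0123 and 0.0117 in the upf1 libraries, against 0.0319, 0.0284, 0.0342 and 0.0565 in the WT libraries (log2 fold change −0.87, SE 0.16, limma adjusted p = 0.000223). The groups did not overlap. XUT0415, over 99.4% of FUS1, had 38, 48, 31 and 24 reads in the upf1 libraries and 0, 1, 0 and 1 in the WT libraries, and was too low on average to be tested. MUP1, the high-affinity methionine permease, had 0.647, 0.637, 1.04 and 0.969 in the upf1 libraries, against 1.11, 0.958, 0.972 and 1.25 in the WT libraries (log2 fold change −0.40, SE 0.15, limma adjusted p = 0.0425). It missed the threshold when WT replicate 1 or 4 (log2 fold change −0.38 and −0.32) or upf1 replicate 1 or 2 (−0.30 and −0.29) was left out, and when only the 2 groups were fitted. XUT0992 over MUP1 had 0.0467, 0.0415, 0.0370 and 0.0390 in the upf1 libraries and 0.00648, 0.00528, 0.00547 and 0.0111 in the WT libraries (log2 fold change 1.18, SE 0.13, limma adjusted p = 9.08e-07).

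Genes of the mating system stood on both sides. The list for mating and pheromone response holds 36 tested genes, of which 15 rose and 3 fell in upf1, and 5 of its genes are XUT-covered. STE2, BAR1 and AGA2 belong, in S. cerevisiae, to the genes used by a cells and kept off in alpha cells, while all strains here are MATalpha. STE2, the receptor for alpha-factor (chromosome 3, 777636 to 779069, plus strand), had densities of 0.194, 0.192, 0.219 and 0.233 in the upf1 libraries, against 0.0412, 0.0367, 0.0466 and 0.0737 in the WT libraries (log2 fold change 1.74, SE 0.14, limma adjusted p = 1.05e-08). XUT0490, over 94.3% of it, had 0.10, 0.0777, 0.10 and 0.0875 in the upf1 libraries, against 0.0106, 0.00623, 0.0135 and 0.0145 in the WT libraries (log2 fold change 1.84, SE 0.13, limma adjusted p = 3.44e-09). Neither strand overlapped between the groups, and the ratio of the pair was not called (log2 fold change 0.09).

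BAR1, the protease that destroys alpha-factor, had 0.0844, 0.0928, 0.0821 and 0.103 in the upf1 libraries, against 0.0390, 0.0305, 0.0247 and 0.0370 in the WT libraries (log2 fold change 1.07, SE 0.12, limma adjusted p = 9.44e-07). XUT0213 had 0.0764, 0.0721, 0.117 and 0.0998 in the upf1 libraries, against 0.0208, 0.0111, 0.0248 and 0.0288 in the WT libraries (log2 fold change 1.43, SE 0.16, limma adjusted p = 9.57e-07). AGA2, the binding subunit of a-agglutinin, had only 5, 1, 3 and 0 reads in the upf1 libraries and 5, 1, 4 and 11 in the WT libraries, and was not called (log2 fold change −0.58). XUT0035, which covers it whole, had 55, 48, 32 and 16 reads in the upf1 libraries and 0, 5, 2 and 0 in the WT libraries (log2 fold change 1.90, SE 0.17, limma adjusted p = 4.83e-08). HMLALPHA1, the alpha1 gene annotated at the silent locus HML, averaged 0.359 in upf1 and 0.186 in WT (log2 fold change 0.85, SE 0.17, limma adjusted p = 0.000512). The active mating-type locus of these cells holds the same gene, so the source of these reads is uncertain.

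**Figure D4:**
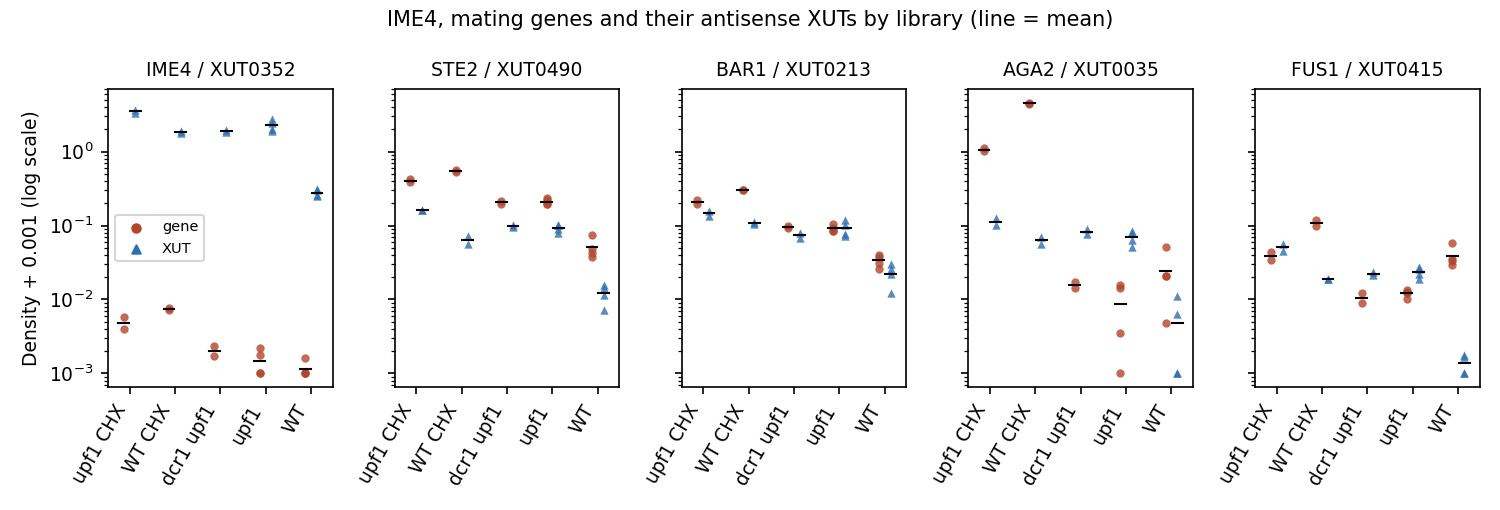
Density + 0.001 on a log scale of IME4, STE2, BAR1, AGA2 and FUS1 (red circles) and of the XUT facing each (blue triangles) in every library of the 5 groups, with group means as lines. XUT0352 lies far above IME4 in all 14 libraries, while AGA2 averages 4.51 in WT CHX and 0.0233 in WT.

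Of 6 XUT-covered transport genes 3 rose, 1 (MUP1) fell, BAP2 was not called (log2 fold change −0.02) and DAL4 was not tested. The transport list as a whole had 25 genes higher and 1 lower of 77. SUL2, a sulphate permease, had 0.102, 0.103, 0.118 and 0.108 in the upf1 libraries, against 0.0266, 0.0171, 0.0294 and 0.0208 in the WT libraries (log2 fold change 1.56, SE 0.12, limma adjusted p = 1.01e-08). XUT0349, over 94.4% of it, averaged 0.112 in upf1 and 0.0119 in WT (log2 fold change 2.05, SE 0.14, limma adjusted p = 1.95e-09). HXT5, a hexose transporter, rose with its XUT0887 by 0.74 and 0.70 on the log2 scale. ADY2, an acetate transporter, rose by 0.48 on that scale, and it missed the threshold when WT replicate 2 (0.45), upf1 replicate 1 (0.43) or upf1 replicate 2 (0.45) was left out.

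The list for meiosis and sporulation had 36 genes higher and 1 lower of 49 tested. Of its 4 XUT-covered genes IME4 and MER1 were too low to be tested, MEK1 rose and RMD5 was not called (log2 fold change 0.20). MEK1, a kinase of meiotic recombination, had 0.0228, 0.0179, 0.0350 and 0.0386 in the upf1 libraries, against 0.00920, 0.00193, 0.00833 and 0.00748 in the WT libraries (log2 fold change 0.85, SE 0.18, limma adjusted p = 0.000819), and XUT0644 averaged 0.0666 in upf1 and 0.0153 in WT. Of the 4 XUT-covered transcription factor genes GAT1, NRG1, RTG1 and YAP6 0 were called, against 32 higher and 0 lower of 115 on their list. In the respiration list (37 higher and 0 lower of 83) CIT3, a mitochondrial citrate synthase, and ATP20, an ATP synthase subunit, rose, and ATP11 did not pass (log2 fold change −0.02). CIT3 averaged 0.0521 in upf1 and 0.0247 in WT (log2 fold change 0.69, SE 0.14, limma adjusted p = 0.000623), while XUT0346 averaged 0.321 in upf1 and 0.0370 in WT (log2 fold change 2.57, SE 0.12, limma adjusted p = 1.96e-11). ATP20 had a log2 fold change of 0.32, which was −0.001 under mRNA-ratio scaling.

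On the cell cycle list 30 genes were higher and 2 lower of 140. Of its 5 XUT-covered genes DYN2, the dynein light chain, rose (log2 fold change 0.51), and AXL2 (0.10), BUD9 (0.11), MAD2 (0.20) and TPM2 (0.25) were not called. The XUTs of AXL2, BUD9 and MAD2 rose by 1.75, 1.29 and 1.26 on the log2 scale. By contrast, XUT0707 over DYN2 was 1.8% of the gene in upf1 and 3.5% in WT. It had 23, 21, 18 and 18 reads in the upf1 libraries and 30, 25, 18 and 29 in the WT libraries. XUT0369 over TPM2 had only 2, 4, 0 and 0 reads in the upf1 libraries and 3, 3, 2 and 0 in the WT libraries. DNA replication and repair genes were higher in 65 and lower in 0 of 137 cases. Of the 3 that are XUT-covered, RAD55, a recombination mediator, rose (log2 fold change 1.31, SE 0.11, limma adjusted p = 3.05e-08) and DPB3 (−0.10) and MGT1 (0.07) did not pass. In the cell wall list 9 genes were higher and 0 lower of 51, and of its XUT-covered genes BIG1 rose (log2 fold change 0.89), TIP1 was not called and DFG5 was not tested. In the stress list 20 were higher and 1 lower of 73, and the XUT-covered HSP12 (0.23) and HSP26 (0.53) were not called. The 1 XUT-covered gene of amino acid biosynthesis, PRO3, was not called (0.09; 32 higher and 0 lower of 76 on its list). The lists for NMD and decapping (6 higher and 1 lower of 24) and for the nuclear exosome (1 higher and 0 lower of 19) hold 0 of the 256 genes.

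Genes were also split by layout in upf1 against WT. Among genes whose XUT covers the start 69.4% rose, against 54.4% of genes covered whole, 52.4% of those covered at the end and 56.0% of those covered inside only. Genes with a convergent neighbour rose in 71.1% of cases and those with a tandem neighbour in 55.6%, and their median WT densities were 0.116 and 0.199. Genes whose XUT rose were themselves higher in 65.7% of 178 cases, and those whose XUT was not called higher in 45.8% of 24. None of these splits was tested, and WT density differs between them.

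Under the deposited scaling cycloheximide raised both strands in WT cells. In WT CHX against WT 224 of 233 genes rose and 0 fell, against 98.1% and 0.0184% of all mRNAs and 229 of the matched genes. Relative to the mRNAs (mRNA-ratio scaling) 105 of the genes were higher and 36 lower, against 33.9% and 24.8% of all mRNAs. Of the XUTs 216 of 217 rose under the deposited scaling (96.5% of all XUTs did). Under mRNA-ratio scaling 67.3% of them rose and 3.69% fell, against 58.3% and 2.18% of the other XUTs tested. The median XUT density was 17.1% of the gene in WT CHX and 10.8% in WT. The ratio was called higher in 47 pairs and lower in 39, against 19.5% and 25.6% of all opposite-strand pairs. This split depended on the settings. Under mRNA-ratio scaling 36.1% of pairs rose and 11.4% fell, against 31.7% and 12.5% of all opposite-strand pairs. With a pseudocount of 0.005 10.9% of pairs were lower, and with one of 0.1 12.9% were higher and 56.9% lower. With the pseudocount of 0.02 the median log2 ratio was −2.28 in WT CHX and −2.16 in WT, unlike the raw median, which rose.

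AGA2 had by far the largest rise of the 233 genes in this comparison. It had densities of 4.60 and 4.42 in the WT CHX libraries, against 0.0198, 0.00386, 0.020 and 0.0495 in the WT libraries (log2 fold change 6.81, SE 0.33, limma adjusted p = 7.34e-10). XUT0035 had 0.0683 and 0.0561 in the WT CHX libraries, against 0, 0.0102, 0.00530 and 0 in the WT libraries (log2 fold change 1.80, SE 0.21, limma adjusted p = 3.23e-07). The XUT was 1.38% of the gene in WT CHX and 16.6% in WT. AGA2 was followed by NCAS_0E03130 (3.86), STE2 (3.04), FMP16 (3.01) and NRG1 (2.97), all log2 fold changes. NRG1, a repressor of glucose-repressed genes, had 1.28 and 1.29 in the WT CHX libraries, against 0.146, 0.104, 0.152 and 0.200 in the WT libraries (log2 fold change 2.97, SE 0.17, limma adjusted p = 3.59e-10), and XUT0187 over it had 0.103 and 0.108 in WT CHX, against 0.0103, 0.0125, 0.0141 and 0.0175 in WT. For STE2 the gene outgrew its XUT, and the ratio fell (log2 fold change −1.62).

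In cells without Upf1 the same treatment also raised both strands under the deposited scaling. In upf1 CHX against upf1 211 of 233 genes rose and 1 fell, against 90.8% and 0.11% of all mRNAs, and their median log2 fold change was 0.84. Relative to the mRNAs (mRNA-ratio scaling) 43 of the genes rose and 54 fell (18.455% and 23.176%). Among all mRNAs 21.227% rose and 30.004% fell under that scaling, and of the 233 matched genes 56 rose and 71 fell. Of 217 XUTs 179 rose and 0 fell, with a median of 0.72, while 81.5% of all XUTs rose. Once scaled to the mRNAs 13.4% of the 217 rose and 18.4% fell, against 15.1% and 10.7% of the other XUTs tested. The XUT to gene ratio was higher in 19 pairs and lower in 48, against 11.5% and 20.1% of all opposite-strand pairs. Under mRNA-ratio scaling 14.9% of pairs were called each way, against 15.8% higher and 11.7% lower of all opposite-strand pairs. Without upf1 CHX replicate 1 or 2 the ratio was higher in 4 or 5 pairs and lower in 17 or 20. AGA2 led again, with 1.00 and 1.13 in the upf1 CHX libraries, against 0.0134, 0.00251, 0.0147 and 0 in the upf1 libraries (log2 fold change 5.33, SE 0.33, limma adjusted p = 3.15e-08). NCAS_0E03130 (2.98), NCAS_0A11860 (2.24), RRT5 (2.17) and NRG1 (2.16) followed on the log2 scale. The gene that fell, NCAS_0H03280, had 0.153 and 0.130 in the upf1 CHX libraries, against 0.175, 0.177, 0.35 and 0.310 in the upf1 libraries (log2 fold change −0.70, SE 0.30, limma adjusted p = 0.0417), and its call was lost without upf1 replicate 3 or 4 (log2 fold change −0.53 and −0.59) and without either upf1 CHX library (−0.80 and −0.60). With replicates 1 and 2 alone its log2 fold change was −0.28 and not called, and voom in limma gave −0.66, not called.

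The difference between the responses in upf1 and WT was tested as an interaction. For 74 of 233 genes (31.8%) the cycloheximide response was smaller in upf1 than in WT, and it was larger for 0, against 20.4% of all mRNAs smaller and 0.0% larger and 60 of the matched genes. Scaled to the mRNAs, 50 genes had a smaller response and 2 a larger one, against 12.1% and 0.643% of all mRNAs and 44 and 0 of the matched genes. The count of smaller responses fell to 49 without WT CHX replicate 1, to 49 without WT CHX replicate 2 and to 38 without upf1 CHX replicate 2. Of 217 XUTs 100 had a smaller response and 0 a larger one, against 37.1% of all XUTs smaller. The largest differences among the genes were those of STE2 (interaction −2.15, SE 0.24, limma adjusted p = 2.02e-05), NCAS_0F01690 (−1.80) and NCAS_0B00320 (−1.77). STE2 had 0.429 and 0.381 in the upf1 CHX libraries and 0.560 and 0.521 in the WT CHX libraries (log2 fold change −0.40, not called), against a log2 fold change of 1.74 without cycloheximide.

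Under cycloheximide few genes passed the test between cells with and without Upf1. In upf1 CHX against WT CHX 11 genes were higher and 4 lower, against 3.54% and 1.21% of all mRNAs and 17 and 4 of the matched genes. Without WT CHX replicate 1 or upf1 CHX replicate 1 only 1 was higher, and without WT CHX replicate 2 or upf1 CHX replicate 2 it was 5 or 6. Scaled to the mRNAs it was 21 higher and 8 lower, against 8.2% and 7.1% of all mRNAs and 26 and 15 of the matched genes. Of the 233 genes 44 had an unadjusted p under 0.05, against 17.0% of all mRNAs. NCAS_0B04430 had the largest rise, with 0.682 and 0.640 in the upf1 CHX libraries, against 0.224 and 0.225 in the WT CHX libraries (log2 fold change 1.48, SE 0.21, limma adjusted p = 0.000299). PBI2, a vacuolar protease inhibitor, fell, with 2.42 and 2.28 in the upf1 CHX libraries, against 3.78 and 3.89 in the WT CHX libraries (log2 fold change −0.70, SE 0.13, limma adjusted p = 0.00288). AGA2 had 1.00 and 1.13 in the upf1 CHX libraries, against 4.60 and 4.42 in the WT CHX libraries (log2 fold change −2.06, SE 0.38, limma adjusted p = 0.00511). FUS1 had 0.0426 and 0.0328 in upf1 CHX, against 0.0974 and 0.116 in WT CHX (log2 fold change −1.14, SE 0.23, limma adjusted p = 0.00511). NRG1 had 0.625 and 0.611 in upf1 CHX, against 1.28 and 1.29 in WT CHX (log2 fold change −1.03, SE 0.20, limma adjusted p = 0.00408).

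Some calls missed the threshold when 1 group was down to 1 library, with folds close to the reported ones. For AGA2 this happened without WT CHX replicate 1 or upf1 CHX replicate 1 (log2 fold change −2.04 and −1.98), for FUS1 without WT CHX replicate 2 or upf1 CHX replicate 2 (−1.03 and −1.01), and for NRG1 without upf1 CHX replicate 1 (−1.05). NCAS_0C00210 (0.97) and NCAS_0D03480 (0.87) missed it without WT CHX replicate 1 or upf1 CHX replicate 1, at 0.92 and 0.90 for NCAS_0C00210 and 0.78 and 0.74 for NCAS_0D03480. NCAS_0A03060 (0.87) and NCAS_0G01410 (0.85) missed it whichever of the 4 libraries was left out, at 0.78 to 0.96 for NCAS_0A03060 and 0.75 to 0.96 for NCAS_0G01410.

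XUTs moved up against their genes more often than down. Of 217 XUTs 30 were higher and 1 lower, against 10.5% and 0.26% of all XUTs. Their log2 fold changes had a median of 0.29, against 0.01 for the genes. Under mRNA-ratio scaling 26.7% of the XUTs were higher, against 13.6% of the other XUTs tested. Without WT CHX replicate 1 or 2 the count was 14 or 16, and without upf1 CHX replicate 1 it was 10. The 1 XUT that fell, XUT0667 over the untested gene NCAS_0E03510, had a log2 fold change of −1.31 and was chosen after its value was seen. The ratio of XUT to gene was higher in 35 pairs and lower in 4, against 11.1% and 3.35% of all opposite-strand pairs. It was higher in 20 and 13 pairs without WT CHX replicates 1 and 2, and in 13 and 11 without upf1 CHX replicates 1 and 2. The median XUT density was 24.3% of the gene in upf1 CHX and 17.1% in WT CHX. For DLD3 it was 28.7 and 30.6% in the upf1 CHX libraries and 8.90 and 10.7% in the WT CHX libraries, and for STE2 it was 37.2 and 42.5% in upf1 CHX and 9.93 and 13.6% in WT CHX. In 149 of the 202 pairs the XUT's log2 fold change was above the gene's.

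**Figure D5:**
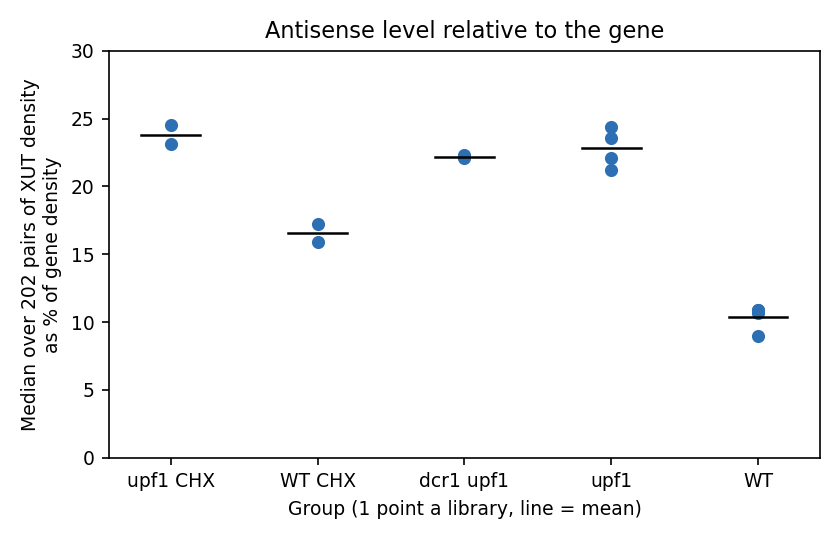
Median over 202 pairs of XUT density as % of gene density, 1 point a library and a line for the mean of each group. The upf1 libraries lie between 21.2% and 24.4%, the dcr1 upf1 libraries at 22.1% and 22.3%, the upf1 CHX libraries at 23.1% and 24.5%, the WT CHX libraries at 15.9% and 17.2% and the WT libraries between 9.0% and 10.9%.

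The last comparison asks whether the loss of Dicer changes genes and antisense partners in cells without Upf1. In dcr1 upf1 against upf1 2 genes rose and 0 fell, against 0.239% and 0.11% of all mRNAs, and 28 of the 233 had an unadjusted p under 0.05, against 13.4% of all mRNAs. With voom in limma 3 were higher. The median log2 fold change was −0.16, against −0.20 for all mRNAs. Of the XUTs 1 rose and 1 fell, against 1.17% and 0.391% of all XUTs. The ratio of XUT to gene was called in 0 of 202 pairs in limma, against 0.0906% of all opposite-strand pairs lower and 0.0% higher, and the median XUT density was 21.9% of the gene in dcr1 upf1 and 21.5% in upf1.

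The 2 genes that rose lie on chromosome 8. NCAS_0H03380 (chromosome 8, 642658 to 644040, minus strand) had 1.05 and 0.613 in the dcr1 upf1 libraries, against 0.232, 0.175, 0.212 and 0.232 in the upf1 libraries (log2 fold change 1.83, SE 0.20, limma adjusted p = 5.76e-05). Its XUT0907, more abundant than the gene in both groups, had 1.54 and 1.66 in dcr1 upf1, against 0.940, 0.919, 1.21 and 1.38 in upf1, and was not called (log2 fold change 0.53). The XUT was 193% of the gene in dcr1 upf1 and 523% in upf1. NCAS_0H03670 (chromosome 8, 698834 to 699265, plus strand), the last gene at that chromosome end, where near-identical copies make levels uncertain, had 1.43 and 0.837 in the dcr1 upf1 libraries, against 0.292, 0.266, 0.278 and 0.331 in the upf1 libraries (log2 fold change 1.84, SE 0.20, limma adjusted p = 5.82e-05). XUT0917 had 1.21 and 1.23 in dcr1 upf1, against 0.581, 0.565, 1.04 and 1.05 in upf1 (log2 fold change 0.64, not called).

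The XUT that rose, XUT0909, faces NCAS_0H03390, the gene next to NCAS_0H03380 on the same strand. It had 1.47 and 1.5 in the dcr1 upf1 libraries, against 0.618, 0.610, 0.549 and 0.83 in the upf1 libraries (log2 fold change 1.18, SE 0.16, limma adjusted p = 0.000448). NCAS_0H03390 itself had 31 and 14 reads in the dcr1 upf1 libraries and 5, 7, 0 and 1 in the upf1 libraries and was not tested. XUT0651, over NCAS_0E02940, fell (log2 fold change −0.58, SE 0.12, limma adjusted p = 0.044), and it missed the threshold whichever of the 6 libraries was left out, at −0.55 to −0.61. For STE2, BAR1 and the XUT over IME4 0 calls were made between dcr1 upf1 and upf1: STE2 averaged 0.206 in dcr1 upf1 and 0.209 in upf1, BAR1 0.0949 in dcr1 upf1 and 0.0905 in upf1, and XUT0352 1.89 in dcr1 upf1 and 2.28 in upf1 (log2 fold change −0.25, not called).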

How the data were processed

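Total RNA with added ERCC spike-ins was depleted of rRNA and sequenced strand by strand, per the labels' protocols. Tools listed in the submitters' processing notes are DESeq2, featureCounts 2.0.0, HISAT2 2.2.0 and Trim Galore, without their settings. The sources used here name no genome build and no handling of multi-mapped reads. The values deposited by the authors are signal: normalised read densities per feature. Their low steps gave each library's reads per density unit, and 100% of values came out whole within 0.001 reads. Of 8343 distinct features 5599 are mRNAs, and 97.6% of mRNA lengths are multiples of 3, so lengths are coding lengths. Gene symbols come from RefSeq (ASM23734v1).

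Members and gene lists were chosen with earlier results of these data known. The genes named are those that rose or fell most in each comparison, those with the highest density, XUT to gene ratio or ratio change, and those on lists; exceptions are marked. Densities + 0.02 were tested as log2 in limma 3.58.1 (R 4.3.3) over all 7518 features with a mean density of at least 0.02, with a mean per group, all 14 libraries and a trended, robust spread (9 residual degrees of freedom). Calls have a Benjamini-Hochberg adjusted p under 0.05. XUT to gene ratios were tested likewise over 1104 pairs. A voom fit in limma replaced the count test, since the deposited unit is no count. Scripts were tested on simulated data.

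Deviations of the upf1 and WT libraries from their group means correlated by 0.37, 0.43, 0.21 and 0.35 for equal replicate numbers, each above 0.1. The replicate number was therefore tried as a block, but only as an alternative. The reported fits hold no pairing or block, so their p-values leave this structure out. Unequal numbers correlated as much within 1 and 2 (0.40 and 0.40) and within 3 and 4 (0.49 and 0.26), and by −0.25 to −0.50 between these sets, so the data show 2 sets of libraries rather than single pairs. The cycloheximide and dcr1 pairs correlated by −0.03 to 0.07.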

Additional observations from a re-analysis of the deposited data

Results flagged for a closer look

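In 9 of 238 groups of 4 libraries, 1 library lay apart from the other 3 by Dixon's test, and chance flags about 1 in 20 groups. In WT these were replicate 1 for IME4 (density 0.00063, against 0 in the others), replicate 4 for NCAS_0A03060 (0.0492, against 0.0244 to 0.0282), replicate 4 for XUT0369 over TPM2 (0, against 0.0102 to 0.0121) and replicate 1 for XUT0176 over NCAS_0A09640 (0.271, against 0.219 to 0.227). In upf1 they were replicate 1 for NCAS_0D00880 (0.0309, against 0.0189 to 0.0208) and replicate 3 for XUT0644 over MEK1 (0.0941, against 0.0551 to 0.0603), for XUT0154 over PMP1 (0.0192, against 0 to 0.00197) and for XUT0808 over SNN1 (0.0437, against 0.0228 to 0.0245). XUT0332 over RAD55 was lowest in upf1 replicate 4 (0.0283, against 0.0314 to 0.0319).

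Of the 60 genes examined by name, all but IME4, which was too low, had the interaction test in limma. For 26 the cycloheximide response in upf1 differed from that in WT (adjusted p under 0.05), and each time it was smaller in upf1. Among the mating genes the differences on the log2 scale were −2.15 for STE2, −1.56 for BAR1, −1.48 for AGA2 and −1.01 for HMLALPHA1. For transport genes they were −1.33 for SUL2 and −0.85 for ADY2, and they were −0.81 for NRG1, −1.04 for RAD55, −0.98 for SNN1, −1.27 for BLS1 and −0.55 for PBI2. Among the genes with the largest rise in upf1 they were −1.80 for NCAS_0F01690, −1.65 for NCAS_0F01680, −1.72 for NCAS_0G02340, −1.77 for NCAS_0B00320, −1.50 for NCAS_0H00110, −0.80 for NCAS_0B04430, −1.58 for NCAS_0F04090, −1.29 for NCAS_0G01410, −1.19 for NCAS_0A03060, −1.30 for NCAS_0B03170, −1.58 for NCAS_0I03080 and −0.96 for NCAS_0D03480. The remaining values were −1.20 for NCAS_0A09640, −0.88 for NCAS_0E00960 and −1.07 for NCAS_0I00100. Under the deposited scaling the median of all mRNAs for this difference was −0.38. The same difference equals the upf1 against WT change under cycloheximide minus that without it. Genes named for the largest rise in upf1 therefore lean to negative values through the way they were chosen, in the same libraries.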

How the results depend on the processing

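Precision is limited by depth for features near the pseudocount of 0.02, and calls that need the WT CHX, upf1 CHX or dcr1 upf1 groups rest on 2 libraries each. Named genes kept direction and side of the threshold in 1072 of 1140 alternative values, fell short of it in 67 and turned in 1, that of ATP20 under mRNA-ratio scaling (−0.001). Of the other shares and medians most stayed within 1.5 times of the value reported, except those given here, whose cause was not tested. Shares are of the genes, XUTs or pairs tested.

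Under mRNA-ratio scaling the genes called were 14.6% lower for upf1 against WT, 45.1% higher and 15.5% lower for WT CHX against WT, 18.5% higher and 23.2% lower for upf1 CHX against upf1, 9.01% higher and 3.43% lower for upf1 CHX against WT CHX, 1.72% higher for dcr1 upf1 against upf1 and 0.858% higher for the interaction. Among XUTs it was 2.30% lower for upf1 against WT, 3.69% lower for WT CHX against WT, 13.4% higher and 18.4% lower for upf1 CHX against upf1, 26.7% higher and 1.38% lower for upf1 CHX against WT CHX and 1.38% higher and 0.0% lower for dcr1 upf1 against upf1. Among ratios it was 36.1% higher and 11.4% lower for WT CHX against WT, 14.9% higher and 14.9% lower for upf1 CHX against upf1 and 10.9% higher and 0.990% lower for upf1 CHX against WT CHX. With the replicate number as a block the genes called were 1.29% lower for upf1 against WT, 0.0% lower for upf1 CHX against upf1 and 9.87% higher and 5.15% lower for upf1 CHX against WT CHX. For XUTs it was 0.461% lower for upf1 against WT, 21.7% higher and 1.38% lower for upf1 CHX against WT CHX and 1.84% higher for dcr1 upf1 against upf1. Among ratios it was 2.97% lower for upf1 CHX against WT CHX. When only the groups compared were fitted the genes called were 0.429% lower for upf1 against WT and 12.9% higher and 10.7% lower for upf1 CHX against WT CHX. Among XUTs it was 29.0% higher and 1.84% lower for upf1 CHX against WT CHX and 0.0% lower for dcr1 upf1 against upf1. Among ratios it was 5.94% higher for upf1 CHX against upf1. With replicates 1 and 2 alone (chosen after seeing the data) the genes called were 3.86% lower for upf1 against WT, 0.429% lower for WT CHX against WT, 12.4% higher and 9.01% lower for upf1 CHX against WT CHX, 1.72% higher and 0.429% lower for dcr1 upf1 against upf1 and 0.429% higher for the interaction. For XUTs it was 0.461% lower for upf1 against WT, 31.3% higher and 1.38% lower for upf1 CHX against WT CHX and 1.84% higher for dcr1 upf1 against upf1. Among ratios it was 14.4% higher for upf1 CHX against upf1 and 27.7% higher and 3.46% lower for upf1 CHX against WT CHX. The median log2 fold change of the genes minus that of matched genes was 0.019 for WT CHX against WT. With voom (chosen after seeing the data) the genes called were 0.0% lower for upf1 CHX against upf1, 3.0% lower for upf1 CHX against WT CHX and 1.29% higher for dcr1 upf1 against upf1. For XUTs it was 0.922% higher for dcr1 upf1 against upf1. With a minimum mean density of 0.1 the genes called were 0.538% lower for upf1 against WT. For XUTs it was 27.7% higher and 0.0% lower for upf1 CHX against WT CHX and 1.54% higher and 1.54% lower for dcr1 upf1 against upf1. Among ratios it was 43.9% higher and 12.2% lower for WT CHX against WT, 14.6% higher for upf1 CHX against upf1 and 31.7% higher and 0.0% lower for upf1 CHX against WT CHX. With no filter on low values the genes called were 0.391% higher for the interaction. With a pseudocount of 0.005 the XUT to gene ratios called were 10.9% lower for WT CHX against WT, 9.90% lower for upf1 CHX against upf1 and 4.95% higher and 0.495% lower for upf1 CHX against WT CHX. With a pseudocount of 0.1 the genes called were 7.30% higher and 3.43% lower for upf1 CHX against WT CHX, 1.29% higher for dcr1 upf1 against upf1 and 0.429% higher for the interaction. Among XUTs it was 29.954% higher for upf1 CHX against WT CHX. Among ratios it was 29.7% higher and 19.8% lower for upf1 against WT, 12.9% higher and 56.9% lower for WT CHX against WT, 44.6% lower for upf1 CHX against upf1 and 5.94% lower for upf1 CHX against WT CHX. The median log2 fold change of the genes minus that of matched genes was 0.11 for upf1 against WT. For genes covered whole the genes called were 1.27% lower for upf1 CHX against upf1, 3.8% lower for upf1 CHX against WT CHX and 0.0% higher for dcr1 upf1 against upf1. Among XUTs it was 0.0% lower for upf1 CHX against WT CHX and 1.19% higher and 1.19% lower for dcr1 upf1 against upf1. The median log2 fold change of the genes minus that of matched genes was −0.087 for WT CHX against WT and 0.022 for upf1 CHX against WT CHX. For genes at least 30% covered the genes called were 1.14% lower for upf1 CHX against WT CHX and 0.286% lower for dcr1 upf1 against upf1. With matching by length too the median log2 fold change of the genes minus that of matched genes was 0.060 for upf1 CHX against WT CHX. Leaving out 1 library at a time gave, of the genes, 0.429% to 1.72% lower for upf1 against WT, 0.0% to 0.429% lower for WT CHX against WT, 0.0% to 0.429% lower for upf1 CHX against upf1, 0.429% to 2.58% higher for upf1 CHX against WT CHX, 0.858% to 1.29% lower for upf1 CHX against WT CHX, 0.858% to 1.29% higher for dcr1 upf1 against upf1, 0.0% to 0.429% lower for dcr1 upf1 against upf1 and 16.3% to 34.8% lower for the interaction. It gave, of the XUTs, 0.0% to 0.461% lower for upf1 against WT, 4.61% to 9.22% higher for upf1 CHX against WT CHX, 0.461% to 0.922% higher for dcr1 upf1 against upf1 and 0.0% to 0.0% lower for dcr1 upf1 against upf1. It gave, of the ratios, 14.4% to 23.3% higher for WT CHX against WT, 12.4% to 18.8% lower for WT CHX against WT, 1.98% to 9.41% higher for upf1 CHX against upf1, 8.42% to 20.8% lower for upf1 CHX against upf1, 5.45% to 9.90% higher for upf1 CHX against WT CHX, 0.0% to 0.495% lower for upf1 CHX against WT CHX and 0.0% to 0.495% higher for dcr1 upf1 against upf1.

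Among genes named, the replicate block ended the calls of FMP16 in upf1 against WT (log2 fold change 0.86) and of NCAS_0H03280 in upf1 CHX against upf1 (−0.42) and of no other. The numbers shared by cycloheximide or dcr1 libraries and their references do not pair them, so the block values for those comparisons say little.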
